A study of Mus musculus with 2 samples.

Results

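The aminoacyl tRNA synthetases are the enzymes that join each amino acid to its transfer RNA, the step that makes an amino acid usable by the ribosome. The 36 genes described here were taken by name. They comprise 20 genes of the cytosolic enzymes and 16 genes of the mitochondrial enzymes, whose names end in 2. All 36 were found among the 54446 genes of the count tables, and all 36 were measured, meaning a mean count of 10 or more, as were 14379 genes in total. Gene names came from the GENCODE M21 annotation of the mouse, in which the methionine enzyme Mars1 is listed as Mars. The study sequenced RNA of bone marrow derived macrophages from C57BL/6 mice. One culture received IL-36 gamma, an inflammatory cytokine of the interleukin-1 family, and the control culture received no treatment. There was 1 library of each kind, and no label states the dose, the time of exposure or the number of animals.

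Mammalian cells keep separate sets of synthetases for the cytosol and for the mitochondrial matrix, and both sets are encoded in the nucleus. For glycine and lysine a single gene, Gars or Kars, supplies both compartments. Mitochondrial glutamine tRNA is charged indirectly, with the help of an amidotransferase. Several cytosolic enzymes are held together in the multisynthetase complex. Many cytosolic synthetase genes are known targets of ATF4, the transcription factor of the integrated stress response, which is translated when the initiation factor eIF2 alpha is phosphorylated. ATF4 pairs with C/EBP proteins on a short DNA element called CARE.

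The IL-36 gamma library held 17267900 counts in genes and the control library 17426367. Each ratio below is IL-36 gamma over control after TMM scaling and carries an exact 95% Clopper-Pearson interval. These intervals cover counting error only, because PCR copies are not independent molecules and no second culture was measured. No difference could be checked in a replicate, since each group is 1 library, so p-values are left out. In bulk RNA, a different number of cells of a type and a different amount of RNA per cell cannot be told apart. The 8 macrophage markers checked, among them Adgre1, Csf1r and Lyz2, summed to 29333 CPM (counts scaled to the library's size) with IL-36 gamma and 29439 CPM in the control, mostly from Lyz2. Within that list Csf1r was at 1228 CPM with IL-36 gamma and 1517 CPM in the control, Mertk was also lower, and Adgre1, Itgam and Fcgr1 were higher. The sum of 10 neutrophil markers was 243 CPM with IL-36 gamma and 151 CPM in the control, and that of 5 dendritic cell markers was 20.9 CPM and 37.4 CPM. Nearly all of the dendritic sum was Itgax, which macrophages also express (332 counts and 644), while Ccr7 had 12 counts and 3. Markers of T cells, B cells, red cells and fibroblasts summed to at most 4.96 CPM per list with IL-36 gamma and 7.99 CPM in the control, with Cd3e, Trbc2 and Pdgfra at 0 in both. The part of these other cells in the synthetase values was not tested.

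The cytosolic synthetases were the more abundant set. Levels between genes are given as scaled CPM per kilobase of exon, counting every annotated exon base of a gene. The median level of the 20 cytosolic genes was 16.8 with IL-36 gamma and 14.9 in the control, and that of the 16 mitochondrial genes was 3.33 and 3.10. Over all measured genes the median level was 4.73 with IL-36 gamma and 4.80 in the control. In each of the 16 amino acids that have a gene for either compartment, the cytosolic gene had the higher level in both libraries. The gap was widest for asparagine, methionine and tryptophan and nearly absent for leucine. These comparisons depend on the division by exon length, which was 11089 bases for Lars2 and 5368 for Lars. In CPM not divided by length, Lars2 had 107 with IL-36 gamma and 99.3 in the control, and Lars 52.6 and 48.6. Undivided, Tars2 (41.6 CPM) also lay above Tars (39.5 CPM) with IL-36 gamma, and Iars2 (61.6 CPM) above Iars (60.0 CPM) in the control.

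Nars, the asparagine enzyme, stood highest, with a level of 52.5 in the IL-36 gamma library and 45.6 in the control. The serine enzyme gene Sars was second with 30.8 and 24.5, and the glycine enzyme gene Gars had 23.4 and 19.5. Among the cytosolic genes low per kilobase were the fused glutamate and proline enzyme Eprs, with 6.08 with IL-36 gamma and 5.73 in the control, and the threonine enzyme Tars, with 6.69 and 6.33. For Eprs this level rests on an exon length of 18102 bases, and undivided it had 110 CPM with IL-36 gamma and 104 CPM in the control. The highest mitochondrial gene was Lars2, the leucine enzyme, at 9.67 with IL-36 gamma and 8.95 in the control. The lowest was Mars2, the methionine enzyme, at 0.706 and 0.727. The level of Nars was 40.7 times that of Nars2 in the IL-36 gamma library and 37.7 times in the control, whereas Lars was 1.01 times Lars2 in both.

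**Figure D1:**
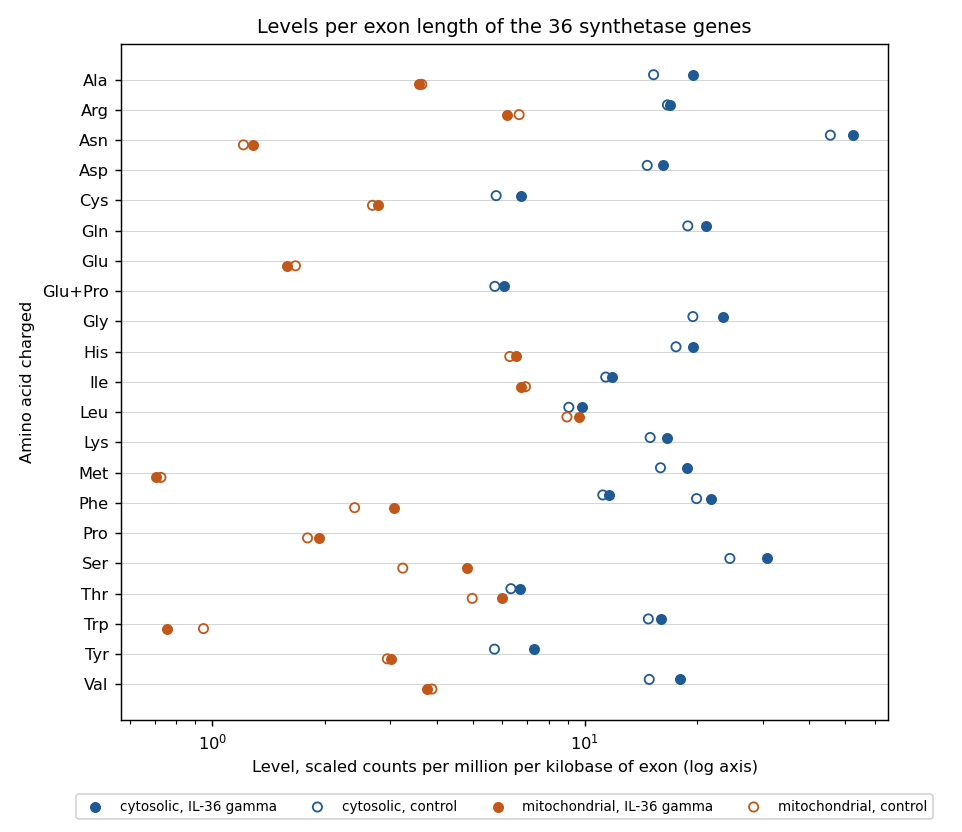
Level of each synthetase gene in scaled CPM per kilobase of exon (log axis), by the amino acid it charges, with cytosolic genes in blue and mitochondrial genes in orange, IL-36 gamma as filled and control as open circles. Each circle is 1 library. Nars reached 52.5 and 45.6, and no mitochondrial gene exceeded 9.67.

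Transcripts of the cytosolic synthetases were more abundant with IL-36 gamma. All 20 cytosolic genes had a ratio above 1 (19 with scaling by total counts or with the length trend removed, where Rars was at 0.979 and 0.975), and for 12 of them the whole interval lay above 1. For 0 did it lie below 1. Of all 14379 measured genes, 20.2% were higher by this rule and 16.5% lower, or 55.0% higher among the genes called either way (39.2% with scaling by total counts). Intervals narrow with the count, so the share among genes in the count span of the cytosolic synthetases is also given, and it was 33.5% above and 22.6% below. A ratio above 1, whatever the interval, was found for 7415 of all 14379 measured genes and for 2347 of the 4095 in that span. The cytosolic counts summed to 28961 with IL-36 gamma and 26539 in the control, a ratio of 1.15 (1.13 to 1.16). Their median log2 ratio was 0.15, against 0.01 over all measured genes and 0.03 over the genes in their count span. The differences were small: the ratios ran from 1.02 for the arginine enzyme Rars to 1.28 for the alanine enzyme Aars.

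Of the cytosolic genes, 5 reached a ratio of 1.2 with an interval above 1, as did 9.38% of all measured genes. No cytosolic gene lay at or below the inverse of 1.2 with an interval below 1, against 10.4% of all measured genes. Aars (chromosome 8, 111033144 to 111057664, mm10, plus strand) had 3069 counts in the IL-36 gamma library and 2523 in the control, a ratio of 1.28 (1.21 to 1.35). Yars, the tyrosine enzyme (chromosome 4, 129189760 to 129219607, plus strand), had 734 counts with IL-36 gamma and 604 in the control, a ratio of 1.28 (1.14 to 1.42). Sars (chromosome 3, 108424865 to 108445209, minus strand) had 2679 counts with IL-36 gamma and 2240 in the control, a ratio of 1.26 (1.19 to 1.33). In these 3 genes the IL-36 gamma library was the higher by about the same factor, although their levels differ. The valine enzyme gene Vars had 1714 counts with IL-36 gamma and 1484 in the control, a ratio of 1.21 (1.13 to 1.30). Gars had 1238 counts with IL-36 gamma and 1081 in the control, a ratio of 1.202 (1.11 to 1.31). Gars was the last gene to reach the limit, and Mars1, with 1092 and 971 counts and a ratio of 1.18 (1.08 to 1.29), the first below it. Of the 50-base stretches in Aars transcripts, 13.8% also occur in transcripts of another gene, mostly the overlapping Exosc6, so part of its reads may have been left uncounted. Gars, Sars and Vars shared no such stretch, and Yars 1.42%.

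A further 6 cytosolic genes had an interval above 1 at smaller ratios. The cysteine enzyme gene Cars had 750 counts with IL-36 gamma and 676 in the control (ratio 1.16, 1.05 to 1.29). Nars, the most abundant member, had 3871 counts with IL-36 gamma and 3531 in the control (1.15, 1.10 to 1.205). The genes of the glutamine enzyme Qars (1.12), the lysine enzyme Kars (1.11), the histidine enzyme Hars (1.11) and the aspartate enzyme Dars (1.10) came next. The interval of Hars began at 1.003, and 7.97% of its exonic bases lie in exons of the opposite strand, where it overlaps Hars2 head to head. The intervals of the other 8 held 1. These were Farsb (1.09) and Farsa (1.04), which encode the subunits of the phenylalanine enzyme, the leucine enzyme gene Lars (1.08), the tryptophan enzyme gene Wars (1.08), Eprs (1.06), Tars (1.06), the isoleucine enzyme gene Iars (1.04) and Rars (1.02).

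**Figure D2:**
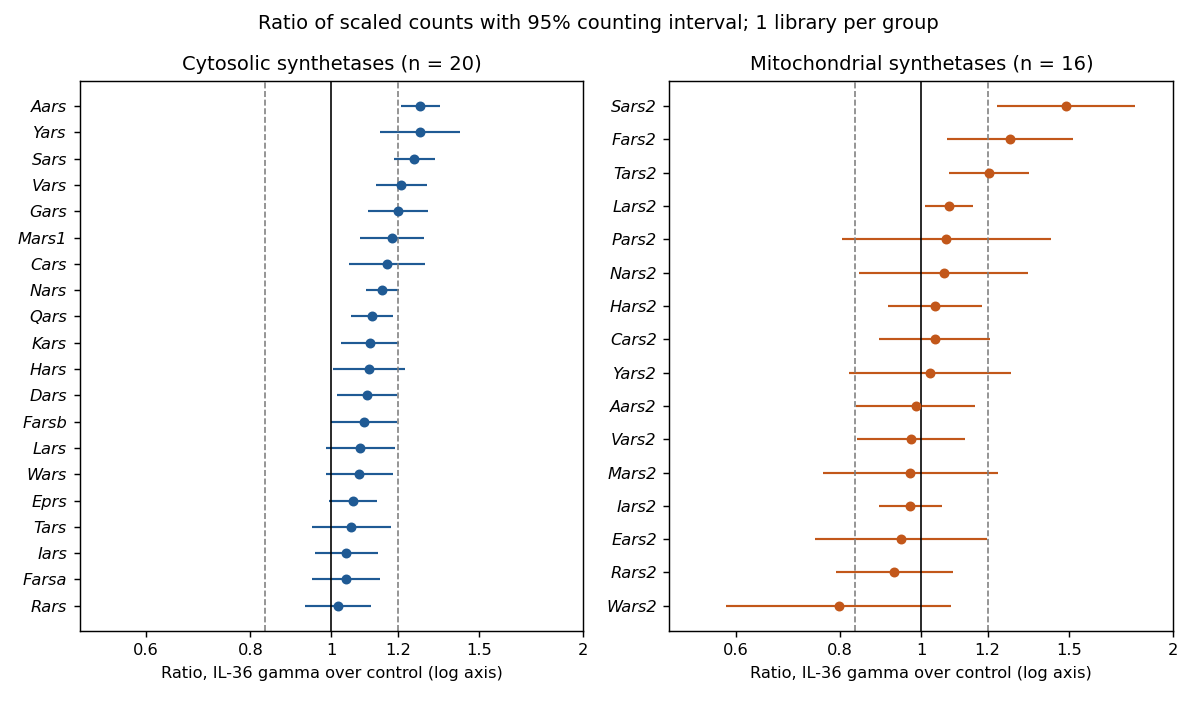
Ratio of scaled counts, IL-36 gamma over control, for each cytosolic gene (left) and mitochondrial gene (right) on a log axis, with bars for the 95% counting interval. The solid line marks 1 and the dashed lines 1.2 and its inverse. With this TMM scaling every cytosolic point lies above 1 (Rars does not with total counts or with the length trend removed), while the mitochondrial points run from 0.798 to 1.49.

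The promoter windows of the synthetases were searched for the CARE core, because many of these genes are known ATF4 targets. The windows are RefSeq's, on GRCm38.p6, from 250 bases before to 50 bases after the annotated start. The core was spelled TGATGNAAN and searched on both strands, and its matches were not compared with other motifs. Of the 36 genes 27 had a window. Of the cytosolic genes 13 had one, and 5 of these held the core (38.5%). For the other 7 (Cars, Hars, Lars, Nars, Rars, Vars and Wars) no window was found under these names, so they were not searched. Of the mitochondrial genes 14 had a window and 0 held it. The core was present in 4.496% of the 27025 genes with a window (3.95% of all 32851 windows) and in 10 of 30 ATF4 targets other than synthetases (33.3%). The 5 synthetase matches are printed with that of Asns, the asparagine synthetase gene and a textbook ATF4 target, to show the letters matched and where they lie. Their cores are alike because the search asked for it. Capitals mark the core, which reads in reverse complement in all but Yars and Asns.
Aars: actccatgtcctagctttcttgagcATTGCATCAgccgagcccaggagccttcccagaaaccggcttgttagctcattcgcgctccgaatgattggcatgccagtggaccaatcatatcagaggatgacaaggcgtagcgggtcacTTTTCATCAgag
Gars: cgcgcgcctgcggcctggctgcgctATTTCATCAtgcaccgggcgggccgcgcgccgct
Iars: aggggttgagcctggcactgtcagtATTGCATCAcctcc
Tars: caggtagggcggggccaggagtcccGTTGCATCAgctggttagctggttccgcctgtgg
Yars: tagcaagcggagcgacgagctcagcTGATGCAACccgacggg
Asns: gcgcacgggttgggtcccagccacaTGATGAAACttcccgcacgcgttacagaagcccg

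The printed stretches lie at chr8:111033704-111033861 (plus strand) for Aars, chr6:55037945-55038003 (plus) for Gars and chr13:49682111-49682149 (plus) for Iars. Those of Tars, Yars and Asns lie at chr15:11399641-11399699 (minus), chr4:129189881-129189922 (plus) and chr6:7693199-7693257 (minus). Counting the start site as 1, with negative positions before it, the core began at -113 and at 9 in Aars, -31 in Gars, 7 in Iars, -16 in Tars and 4 in Yars. Aars, Gars and Yars are among the 5 cytosolic genes that reached 1.2, whereas Iars and Tars had ratios of 1.04 and 1.06. The 5 genes with the core had ratios of 1.04 to 1.28, and the 8 cytosolic genes with a window that lacked these letters had 1.04 to 1.26, so the ranges overlap. Among those 8, Sars reached 1.2. Vars also reached 1.2 but had no window, so it is in neither group. A match is a description of the letters and was not tested as a binding site.

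The mitochondrial synthetases were mixed. Of the 16 genes, 9 had a ratio above 1 and 7 below, and the interval lay wholly above 1 for 4 and wholly below for 0. Among all 8659 genes in their count span 4464 had a ratio above 1, and the interval lay above 1 for 19.4% and below for 18.2%. The mitochondrial counts summed to 6607 with IL-36 gamma and 6560 in the control, a ratio of 1.06 (1.02 to 1.09). The median log2 ratio was 0.04, and with scaling by total counts alone it was -0.01. The spread between genes was wider than in the cytosolic set, with an SD of log2 ratios of 0.21 over 16 mitochondrial genes and 0.10 over 20 cytosolic genes. Mitochondrial genes had lower counts, so their counting error was also larger.

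Sars2, the mitochondrial serine enzyme gene (chromosome 7, 28741992 to 28753871, mm10, plus strand), had 271 counts in the IL-36 gamma library and 191 in the control. Its ratio of 1.49 (1.23 to 1.80) was the highest of all 36 synthetases. The gene shares no 50-base stretch with another transcript and no exon base with a gene on the opposite strand. Fars2, the phenylalanine enzyme gene, had 299 counts with IL-36 gamma and 246 in the control, a ratio of 1.28 (1.07 to 1.52), although 10.7% of its exonic bases lie in exons of the opposite strand. Tars2, the threonine enzyme gene, had 704 counts with IL-36 gamma and 614 in the control, a ratio of 1.203 (1.08 to 1.34). These 3 genes (18.75% of the mitochondrial set) were higher with IL-36 gamma by at least 1.2-fold. The share was 9.38% of all measured genes and 9.83% of those in the mitochondrial count span. All 3 belong to catalytic class II. Lars2 had 1815 counts with IL-36 gamma and 1764 in the control, a ratio of 1.08 (1.01 to 1.15).

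The other 12 mitochondrial genes had intervals that held 1. Ratios above 1 were seen for the genes of the proline enzyme Pars2 (1.07), the asparagine enzyme Nars2 (1.06), the histidine enzyme Hars2 (1.04), the cysteine enzyme Cars2 (1.04) and the tyrosine enzyme Yars2 (1.02). Below 1 lay those of the alanine enzyme Aars2 (0.985), the valine enzyme Vars2 (0.972), the methionine enzyme Mars2 (0.971), the isoleucine enzyme Iars2 (0.970), the glutamate enzyme Ears2 (0.947) and the arginine enzyme Rars2 (0.928). The lowest ratio belonged to the tryptophan enzyme gene Wars2, with 76 counts in the IL-36 gamma library and 100 in the control (0.798, 0.584 to 1.09). At such counts a difference of this size cannot be told from counting error. In Iars2, 24.2% of exonic bases lie in exons of the opposite strand, mainly of Rab3gap2.

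Cytosolic and mitochondrial enzymes were compared directly by dividing the cytosolic ratio by the mitochondrial ratio, a quantity in which the scaling of the libraries cancels. Over the summed counts this ratio of ratios was 1.08 (1.04 to 1.13), and 1.09 (1.05 to 1.14) without Lars2, the most abundant mitochondrial gene. Without the members overlapped by exons of the opposite strand it was 1.04 (0.988 to 1.09), an interval that holds 1. That setting dropped members with any overlap, from Iars2 (24.2% of exonic bases) to Aars (0.83%) and Yars (0.505%), which had the highest cytosolic ratios. Without the members that share 5% or more of their 50-base stretches the ratio of ratios was 1.06 (1.01 to 1.11). Mitochondrial enzymes accordingly took 18.6% (18.2 to 19.0) of synthetase counts with IL-36 gamma and 19.8% (19.4 to 20.3) in the control. All synthetases together made up 0.206% of the gene counts with IL-36 gamma and 0.190% in the control. The cytosolic median log2 ratio exceeded the mitochondrial median by 0.11, with a counting error of 0.09 to either side.

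Of the 16 amino acids with a gene for either compartment, the cytosolic ratio was the higher in 12 and the lower in 4. For alanine the cytosolic gene was at 1.28 and the mitochondrial gene at 0.985, a ratio of ratios of 1.30 (1.09 to 1.54). For valine they were at 1.21 and 0.972, a ratio of ratios of 1.25 (1.06 to 1.47). These were the 2 pairs whose interval lay above 1, and 0 lay below. With intervals widened for 16 comparisons, alanine still lay above 1, from 1.001 to 1.68, and valine did not (0.975 to 1.60). The widest difference in value was that of tryptophan, 1.35, but with the low counts of Wars2 its interval ran from 0.980 to 1.88. Phenylalanine (0.836, 0.695 to 1.01), serine (0.843, 0.691 to 1.03), threonine (0.877, 0.751 to 1.02) and proline (0.991) were the pairs in which the mitochondrial gene had the higher ratio. Leucine, with 1.002 (0.893 to 1.13), lay closest to 1. Serine differs from the other pairs in that both of its genes were at least 1.2-fold higher with IL-36 gamma.

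**Figure D3:**
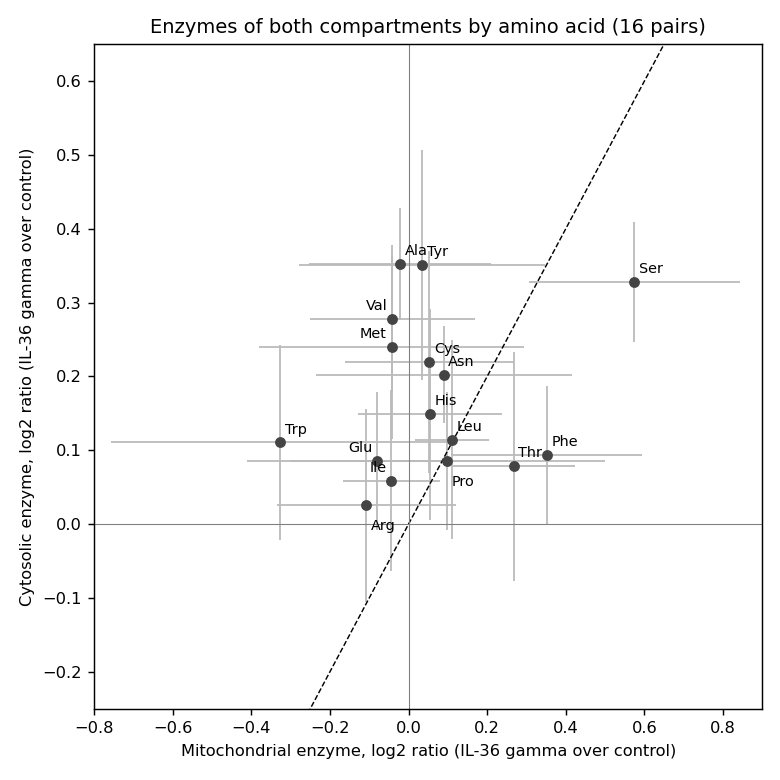
Log2 ratio, IL-36 gamma over control, of the cytosolic enzyme (vertical axis) against that of the mitochondrial enzyme (horizontal axis) for 16 amino acids, with approximate 95% counting bars. Phenylalanine uses the sum of Farsa and Farsb, and Eprs stands for glutamate and proline. Above the dashed line of equality lie 12 amino acids, and Ser, Phe, Thr and Pro lie below it.

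The cytosolic genes were also read by the assembly their enzymes belong to. The 8 enzymes of the multisynthetase complex (Eprs, Iars, Lars, Mars1, Qars, Rars, Kars and Dars) had a median log2 ratio of 0.13 and ratios of 1.02 to 1.18. Of these 4 had an interval above 1 and 0 reached 1.2. The 12 cytosolic genes outside the complex had a median log2 ratio of 0.21 and ratios of 1.04 to 1.28. Their intervals lay above 1 for 8 (66.7%), and the 5 genes that reached 1.2 all belong here. Of all measured genes, 20.2% had an interval above 1 and 9.38% also reached 1.2. In the count span of the cytosolic genes the shares were 33.5% and 9.33%. With the length trend removed, Eprs, in the complex, was at 1.26 and Gars, outside it, at 1.15, so the split at 1.2 did not hold there. Over the summed counts the genes outside the complex had a ratio 1.08 times (1.04 to 1.12) that of the genes in it. The scaffold gene Aimp1 had 640 counts with IL-36 gamma and 586 in the control (ratio 1.15, 1.02 to 1.28), and the intervals of Eef1e1 (1.12) and Aimp2 (0.967) held 1.

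Synthetases fall into catalytic classes I and II, which differ in the fold of the active site. Among the 20 cytosolic genes, Eprs has activities of both, 9 are of class I and 10 of class II. The cytosolic class I genes had a median log2 ratio of 0.16 with 5 of 9 intervals above 1 (55.6%). Those of class II had a median of 0.15 with 7 of 10 (70%). The share above 1 was 20.2% of all measured genes and 33.5% of those in the cytosolic count span. Over both compartments the medians were 0.15 for 17 class II genes and 0.06 for 18 class I genes. Every mitochondrial gene that reached 1.2 is of class II, but the class II genes Aars2, Hars2, Nars2 and Pars2 did not reach it.

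The synthetases differed in gene length and base composition, and ratios in these libraries follow length. Over all measured genes in 5 equal groups by exon length, the median log2 ratio was 0.11 in the group of shortest genes and -0.11 in that of the longest. The median exon length was 4840 bases for the cytosolic genes and 5604 bases for the mitochondrial genes. With the length trend removed the summed ratio was 1.17 for the cytosolic and 1.10 for the mitochondrial genes. Across the 36 genes, ratio and length had a Spearman rho of -0.03, ratio and GC content 0.30 and ratio and level 0.48. The sets differ in both level and ratio. Within the cytosolic genes the rho was 0.19 for length, 0.44 for GC content and 0.38 for level. Within the mitochondrial genes it was -0.01, 0.36 and 0.21. These describe genes of the same pair of libraries, which are not independent replicates.

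Other genes of tRNA charging, tRNA making and mitochondrial translation were read against all measured genes, of which 20.2% had an interval above 1 and 16.5% below. Of 16 measured genes for further charging and proofreading steps, 1 had an interval above 1 and 0 below, and the median log2 ratio was 0.085. It was Dtd2, a tRNA proofreading enzyme gene, with 244 counts with IL-36 gamma and 212 in the control, a ratio of 1.21 (1.001 to 1.46). Of 18 genes of mitochondrial translation and tRNA modification, 3 had an interval above 1 (16.7%) and 0 below, with a median log2 ratio of 0.06. Tufm, the mitochondrial elongation factor Tu, was at 1.22 (1.13 to 1.32), and the pseudouridine synthase gene Pus1 at 1.203 (1.07 to 1.36). Among 28 genes of tRNA transcription, processing and export the median was 0.02, with 7 intervals above 1 (25%) and 2 below (7.14%), so the share above was near that of all genes. The RNase P subunit gene Rpp30 (1.31, 1.04 to 1.66) and the tRNA splicing endonuclease genes Tsen15 (1.27, 1.04 to 1.55) and Tsen54 (1.26, 1.07 to 1.49) were higher with IL-36 gamma. Bdp1, a subunit of the RNA polymerase III factor TFIIIB, had 416 counts with IL-36 gamma and 603 in the control, a ratio of 0.724 (0.638 to 0.822). That ratio was not corrected for length, and in the group of longest genes 21.3% were lower past 1.2-fold.

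ATF4 targets that are not synthetases had a larger median ratio than the synthetases, a difference that was not tested. Atf4 itself had 2536 counts with IL-36 gamma and 2056 in the control, a ratio of 1.29 (1.22 to 1.37). Of 34 measured targets, 23 had an interval above 1 (67.6%) and 2 below (5.88%), against 20.2% and 16.5% of all measured genes, and their median log2 ratio was 0.34. A ratio of 1.2 with an interval above 1 was reached by 18 of the 34 (52.9%), against 9.38% of all measured genes. Asns, with 497 counts with IL-36 gamma and 230 in the control, had a ratio of 2.27 (1.94 to 2.66). Phgdh, which starts serine synthesis, had 109 counts with IL-36 gamma and 42 in the control, a ratio of 2.72 (1.89 to 3.99). The pseudokinase gene Trib3 was at 2.23 (1.79 to 2.79), and Slc1a4, a neutral amino acid transporter gene, at 2.71 (1.35 to 5.80) on 31 and 12 counts. The highest ratio of a synthetase was 1.49, that of Sars2. The lipoprotein receptor gene Vldlr was the lower one past 1.2-fold, at 0.796 (0.644 to 0.982). Of the eIF2 alpha kinases, Eif2ak4, the sensor of uncharged tRNA, had 382 counts with IL-36 gamma and 526 in the control, a ratio of 0.762 (0.666 to 0.871), not corrected for length. The intervals of Eif2ak1, Eif2ak2 and Eif2ak3 held 1.

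**Figure D4:**
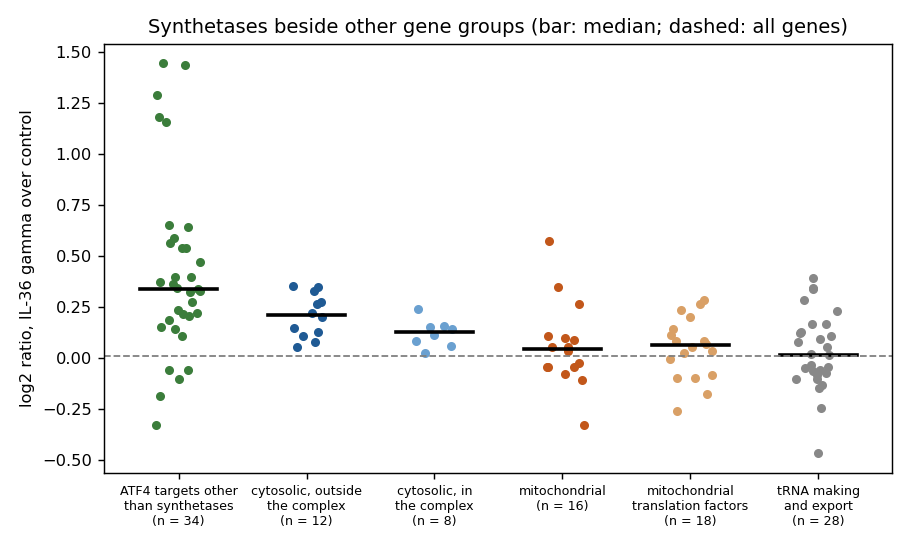
Log2 ratio, IL-36 gamma over control, of each measured gene in 6 groups, with the group median as a bar and the median of all measured genes as a dashed line. The medians were 0.34 for ATF4 targets other than synthetases, 0.21 and 0.13 for cytosolic synthetases outside and in the complex, 0.04 for mitochondrial synthetases, 0.06 for mitochondrial translation factors and 0.02 for genes of tRNA making and export.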

How the data were processed

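The authors deposited raw read counts for each Ensembl gene ID, not normalized, in 1 file per library. The submitters' processing notes list HTSeq, STAR 2.5.0a, Trim Galore 0.6.1 and FastQC 0.11.8, with mm10. How HTSeq treated strand and which annotation it read is not stated, so reads of genes overlapping on opposite strands cannot be told apart. The counter's 5 rows that name no gene were left out. They held 55.1% of all entries with IL-36 gamma and 55.6% in the control. Symbols, positions and exon lengths came from GENCODE M21 (GRCm38), and promoter windows from RefSeq.

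Counts were scaled with edgeR 4.0.16 TMM factors (0.981 for IL-36 gamma and 1.02 for the control). No edgeR test could be fitted, because single libraries leave no residual degrees of freedom. A gene counted as measured if its mean count reached 10. A ratio was called higher or lower when its 95% interval lay wholly on that side of 1, and a second rule also asked for 1.2-fold. Ratios of ratios carry conditional exact intervals. The script was tested on simulated Poisson libraries.

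The members and lists were chosen with earlier results of these data known. All members are named, and of each other list up to 4 genes per direction past the second rule, plus Atf4. Genes given beyond that rule (the scaffold genes and the other kinases) were chosen after their values were seen. The names Mrpp3 and Ddit3 had no single matching gene, and their values were not analysed here. Computations used R 4.3.3, Python 3.11.15, scipy 1.17.1 and statsmodels 0.14.6. Alternatives covered scaling (total counts, upper quartile, DESeq2 1.42.0 size factors), count filters, trends on expression, length and GC content, 99% intervals, thinning and left-out members.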

Additional observations from a re-analysis of the deposited data

How the results depend on the processing

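The cytosolic median log2 ratio stayed above the mitochondrial one under all alternatives run, by 0.07 to 0.12. The counting error of this difference was 0.09 to either side, so the 0.07 seen with the expression trend removed lies within it. No synthetase had an interval below 1 under any alternative, and 7 to 15 cytosolic and 3 to 4 mitochondrial genes had one above 1. Over all genes the number above 1 ran from 1922 of 8963 (no opposite-strand overlap) to 2991 of 23580 (no count filter). It was 2070 of 14379 with total counts. With total counts the cytosolic median log2 ratio was 0.095, the summed ratios were 1.10 (cytosolic) and 1.02 (mitochondrial), and 3 cytosolic genes reached 1.2. Of the genes whose whole interval lay on either side of 1, 39.2% were then higher, against 55.0% with TMM. DESeq2 size factors left 3 cytosolic genes at 1.2. With the expression trend removed the cytosolic summed ratio was 1.12 and 3 genes reached 1.2. With the length trend removed the summed ratios were 1.17 and 1.10. Without members overlapped on the opposite strand by any base, which drops Aars and Yars, 14 cytosolic and 9 mitochondrial genes were left. Of these, 7 cytosolic genes had an interval above 1 and 3 reached 1.2. The cytosolic gene was the higher in 3 of 6 amino acids, and the ratio of ratios was 1.04 (0.988 to 1.09). Of all 8963 genes without such overlap, 1922 lay above 1 and 1495 below. Leaving out members that share 5% or more of their 50-base stretches, chosen after seeing the data like the setting without Lars2, left 7 of 10 amino acids higher in the cytosolic gene. The call of Hars was lost under 6 alternatives and that of Lars2 under 4. No paired analysis was possible because each group has 1 library.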
